A study of Mus musculus with 2 samples.

Results

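In NMuMG cells, an epithelial line derived from normal mouse mammary gland, part of the distal chromatin called open only after 2 h of TGFβ lay in dense groups of sites. Of the 6519 distal open-chromatin intervals found in TGFβ-treated but not in vehicle-treated cells, 628 formed 188 such clusters, which were spread over all 20 chromosomes examined. The cells of both groups had been kept without serum and insulin for 6 h. They then received either TGFβ1 at 5 ng/ml (TGFb2h) or only the carrier solution (veh) for 2 h. The assay was DNaseI-seq, in which nuclei are briefly digested with DNaseI and the short fragments released from accessible DNA are sequenced. Each condition was represented by 1 deposited list of peak intervals on mouse assembly mm9, with 22600 different intervals for TGFβ and 17784 for vehicle. A cluster was defined by position alone. TGFβ intervals were taken that shared no base with a vehicle interval and lay outside 1000 bp on either side of any annotated transcript start. Neighbours on a chromosome whose midpoints were at most 20 kb apart were chained, and chains of 3 or more were kept. The members were thus chosen for being called with TGFβ only and for lying close together, and neither property is a result. Absence from the vehicle list means that no interval was called there and not that the DNA was closed. The spread between cultures is unknown with 1 list per condition, so the conditions were compared without a test.

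TGFβ binds serine/threonine kinase receptors that phosphorylate SMAD2 and SMAD3, which enter the nucleus with SMAD4 and bind short DNA elements, usually beside other transcription factors. AP-1, a dimer of JUN and FOS proteins, is one of these partners and is also reached through the MAP kinase branch of the pathway. In mammary epithelial cells the cytokine halts proliferation and drives an epithelial-to-mesenchymal transition (EMT), in which cell junctions are lost and actin fibres, matrix and integrins are rebuilt. Genes with strong regulated expression often have several enhancers in a row, either between genes or within introns.

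Promoter intervals were looked up at cell type markers. Of 8 epithelial marker genes, 4 had a promoter interval in both lists (Cdh1, Krt8, Krt18 and Krt19), whereas none was called at Epcam, Cldn4, Cldn7 or Esrp1 in either. None of the 4 haematopoietic, 3 endothelial and 2 adipocyte markers had one in either list. Over all coding genes, 43.9% had a promoter interval in both lists and 51.8% in neither. The epithelial counts were near these shares and do not establish the cell type.

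Sequences are shown for 12 clusters, to let the sites behind the counts be seen: the first 6 by number of members, and 6 at genes of TGFβ signalling, adhesion, EMT and related lists. Each is the plus strand of mm9 over the 200 bp around the midpoint of the highest-scoring member. Capitals mark every match to the AP-1 element TGACTCA, read on either strand (TGAGTCA on the other).
Krt80, chr15:101212254-101212453: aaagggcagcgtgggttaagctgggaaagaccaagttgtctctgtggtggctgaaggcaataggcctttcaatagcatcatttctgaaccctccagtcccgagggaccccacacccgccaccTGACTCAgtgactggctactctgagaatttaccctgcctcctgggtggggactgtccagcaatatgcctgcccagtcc
Bhlhe40, chr6:108656069-108656268: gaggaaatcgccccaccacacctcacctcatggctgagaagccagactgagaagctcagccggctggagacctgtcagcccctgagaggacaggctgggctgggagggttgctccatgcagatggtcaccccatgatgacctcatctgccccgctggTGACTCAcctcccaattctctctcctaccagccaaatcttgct
Gm355, chr2:128370348-128370547: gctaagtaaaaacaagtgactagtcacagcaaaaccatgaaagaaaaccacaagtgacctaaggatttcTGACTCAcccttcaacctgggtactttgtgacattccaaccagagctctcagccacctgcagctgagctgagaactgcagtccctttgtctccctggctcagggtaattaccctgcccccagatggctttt
Itga2, chr13:115723835-115724034: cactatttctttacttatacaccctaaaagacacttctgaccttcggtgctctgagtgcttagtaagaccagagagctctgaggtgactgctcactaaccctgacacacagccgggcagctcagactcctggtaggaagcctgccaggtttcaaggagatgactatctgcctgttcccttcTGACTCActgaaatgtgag
Dusp10, chr1:185757981-185758180: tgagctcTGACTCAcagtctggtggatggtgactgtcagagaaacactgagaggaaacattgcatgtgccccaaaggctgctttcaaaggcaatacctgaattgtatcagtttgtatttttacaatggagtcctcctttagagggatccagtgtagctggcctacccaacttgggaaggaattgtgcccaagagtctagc
Sox4, chr13:28810669-28810868: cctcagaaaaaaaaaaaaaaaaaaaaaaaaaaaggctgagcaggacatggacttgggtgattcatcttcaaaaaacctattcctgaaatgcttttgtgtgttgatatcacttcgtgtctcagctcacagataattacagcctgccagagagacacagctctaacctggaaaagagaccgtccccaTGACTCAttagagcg
Tnnt2, chr1:137741189-137741388: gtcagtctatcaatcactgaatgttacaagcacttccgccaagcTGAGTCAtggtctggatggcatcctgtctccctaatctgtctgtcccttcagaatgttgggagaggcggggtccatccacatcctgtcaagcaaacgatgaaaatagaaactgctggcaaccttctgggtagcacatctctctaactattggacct
Sema4b, chr7:87321141-87321340: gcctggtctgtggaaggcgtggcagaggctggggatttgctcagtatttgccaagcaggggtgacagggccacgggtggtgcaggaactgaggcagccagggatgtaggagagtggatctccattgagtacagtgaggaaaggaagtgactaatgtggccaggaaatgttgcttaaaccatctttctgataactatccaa
Sh3glb1, chr3:144327915-144328114: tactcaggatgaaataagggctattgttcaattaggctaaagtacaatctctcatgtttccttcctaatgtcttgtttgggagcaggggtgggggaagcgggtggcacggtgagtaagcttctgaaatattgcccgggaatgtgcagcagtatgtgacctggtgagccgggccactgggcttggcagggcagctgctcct
Clvs1, chr4:8995301-8995500: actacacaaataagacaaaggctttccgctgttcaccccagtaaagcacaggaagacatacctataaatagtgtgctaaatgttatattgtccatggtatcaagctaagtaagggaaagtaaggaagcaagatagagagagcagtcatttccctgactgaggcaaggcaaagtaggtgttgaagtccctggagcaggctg
Smad3, chr9:63549211-63549410: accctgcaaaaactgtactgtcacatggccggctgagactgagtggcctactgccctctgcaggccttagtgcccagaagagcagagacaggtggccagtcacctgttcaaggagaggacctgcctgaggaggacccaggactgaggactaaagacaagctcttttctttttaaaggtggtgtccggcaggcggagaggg
Myh9, chr15:77687072-77687271: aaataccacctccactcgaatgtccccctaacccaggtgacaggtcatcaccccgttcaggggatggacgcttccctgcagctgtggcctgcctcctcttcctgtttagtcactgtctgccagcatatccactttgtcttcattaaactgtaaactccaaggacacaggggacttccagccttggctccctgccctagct
The first 7 windows held 1 AP-1 match each, at varying distance from the midpoint, and the Tnnt2 match was on the minus strand. The windows at Sema4b, Sh3glb1, Clvs1, Smad3 and Myh9 held none. The highest-scoring members stand for the highest-ranked calls and not for the share of AP-1 among all members.

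More clusters came from the TGFβ list than from the same rule with the lists exchanged. In the TGFβ list, 33.7% of all intervals (7611 of 22600) and 55.3% of the distal ones (6519 of 11783) had no vehicle counterpart. Of these distal intervals 9.63% (95% interval 8.94 to 10.4) fell in clusters. Exchanging the lists, 17.6% of all vehicle intervals had no TGFβ counterpart, and 2381 of these were distal (31.6% of the 7533 distal vehicle intervals). Of these, 30 (1.26%, 0.884 to 1.79) formed 10 clusters, each of 3 members. The pools differ in size, and a larger pool on the same genome is denser, so the counts are not like for like. Cutting the TGFβ list by its own score to the length of the vehicle list left 64 TGFβ-only clusters (5.90% of the remaining pool, 5.17 to 6.73) and raised the vehicle-only clusters to 30, with 91 members (2.87%, 2.34 to 3.50, of 3176 vehicle-only distal intervals). Close spacing was not particular to new sites. The 5264 distal TGFβ intervals that overlapped a vehicle interval formed 203 chains of 3 or more with 706 members (13.4%, 12.5 to 14.4). The intervals throughout are Wilson intervals, or Newcombe intervals for a difference, and cover the counting of intervals only. Members of a cluster share a locus and are not independent, so they are too narrow.

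**Figure D1:**
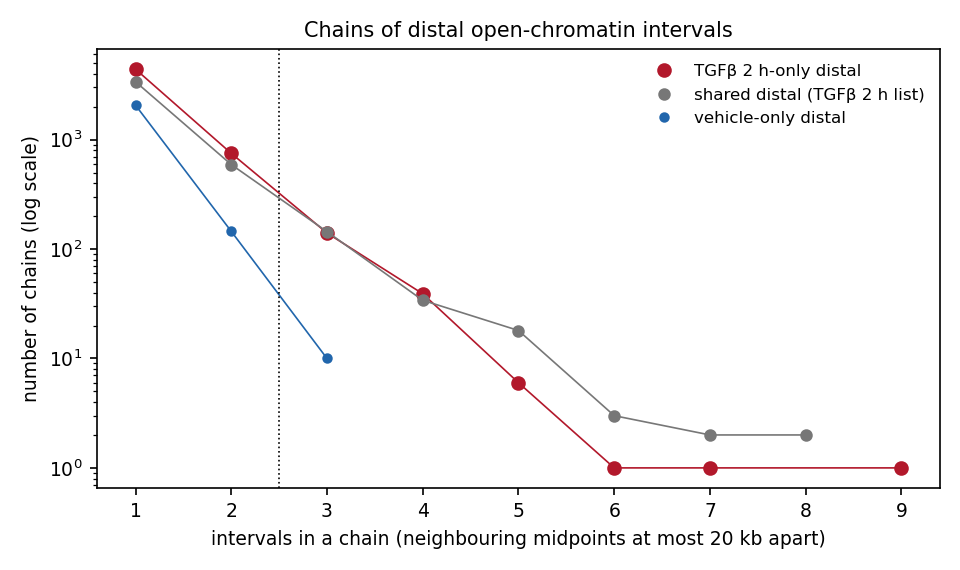
Number of chains (log scale) against the number of intervals in a chain, for distal intervals called with TGFβ only, for distal TGFβ intervals shared with vehicle, and for distal intervals called with vehicle only. The dotted line marks the cluster threshold, and TGFβ-only chains reached 9 intervals where vehicle-only chains ended at 3.

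Most clusters were small. There were 140 clusters of 3 members, 39 of 4, 6 of 5, and 1 each of 6, 7 and 9 members. A further 1496 TGFβ-only distal intervals formed 748 pairs and 4395 stood alone. A cluster spanned a median of 20.3 kb (range 0.659 to 73.0), of which its members covered a median of 1543 bp. The 440 gaps between neighbouring midpoints had a median of 8.71 kb, and 132 of them (30.0%) were under 5 kb. Some neighbours were nearly adjacent: in 53 gaps the facing edges were under 150 bp apart, and 49 clusters held such a pair. The shortest cluster, in an intron of Aldh4a1, was 3 intervals within 0.659 kb. Dropping intervals under 150 bp and joining those closer than 1000 bp, as the study did for its ATAC-seq peaks, left 113 of the 188 clusters. The chain limit of 20 kb cut through a continuous range of gaps. The closest gaps inside it were 19.916 kb near Cobll1, 19.936 kb near Kifc3 and 19.959 kb near Cd9, and the closest outside were 20.032 kb near Atp2b4, 20.043 kb near Sep15 and 20.063 kb near Srp9. Members just inside the size limit (chains of 3) had a median score of 695.5 and a median width of 441 bp, against 686 and 427.5 bp in chains of 2.

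The largest cluster ran over Krt80, which encodes a type II keratin. Its 9 members spanned 73.0 kb (chr15:101146137-101219151), from the region downstream of the gene through 1 intron to 18.2 kb upstream of its start. In the authors' whole-number score, which ranks intervals within a list from 540 to a ceiling of 1000, the 9 members scored 693, 895, 1000, 696, 798, 569, 743, 1000 and 966 in genome order. Both ceiling members, the interval upstream of Krt80 shown above among them, held an AP-1 match, as did 2 others, 1 of them with 2 matches. The first pair was split by a gap of 0.302 kb between midpoints, and 3 vehicle intervals lay inside the span. The Krt80 promoter itself was called in both lists.

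Next in size was a run of 7 members downstream of Bhlhe40, a circadian basic helix-loop-helix repressor (chr6:108638180-108690901, 52.7 kb). It began 27.3 kb from the start of Bhlhe40. The scores were 861, 861, 888, 789, 1000, 569 and 601, so that the 5 members nearer to Bhlhe40 ranked above the 2 nearer to Arl8b. AP-1 matches were found in 4 members and the SMAD element in 3, with both in 2 of them. The 6 members at Sema4b, a transmembrane semaphorin (chr7:87285850-87353451, 67.6 kb), differed in content. None held AP-1, whereas 3 held a SMAD element, with 3 matches in the intronic member at 9.7 kb from the start. Their scores were 596, 680, 937, 652, 571 and 548, none at the ceiling, and the span contained 5 vehicle intervals, more than any other cluster.

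Among the 5-member clusters, that at Itga2, the α2 subunit of a collagen-binding integrin, lay astride the gene start (chr13:115705260-115736086, 30.8 kb). Both intronic members scored low (575 and 592). The 3 upstream members, 1.69, 8.52 and 13.7 kb from the start, scored 1000, 615 and 883, and each held 1 AP-1 match. Of the other clusters of this size, 3 had no vehicle interval in the span. They were 5 members scoring 653 to 1000 beside Gm355 (chr2:128369885-128399224), 5 scoring 557 to 700, 164.9 kb from the start of Clvs1 (chr4:8995173-9031588), and 5 scoring 576 to 760 across 0610010O12Rik and Pfdn1, a prefoldin subunit, of which 3 held AP-1. Neither Gm355 nor Clvs1 had a promoter interval in either list. At Sh3glb1, which acts in autophagy and membrane bending, 1 intronic and 4 downstream members scored 550 to 1000, and 2 held AP-1. The intronic cluster of Cmtm8 scored 545 to 738 and was 1 of the few whose gene had a promoter interval in the TGFβ list only. The tenth cluster in size had 4 wide members 9.49 kb and more from the start of F3, which encodes tissue factor, the initiator of coagulation. They scored 975, 1000, 602 and 998, with AP-1 in 3 of the 4 and no vehicle interval between them.

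**Figure D2:**
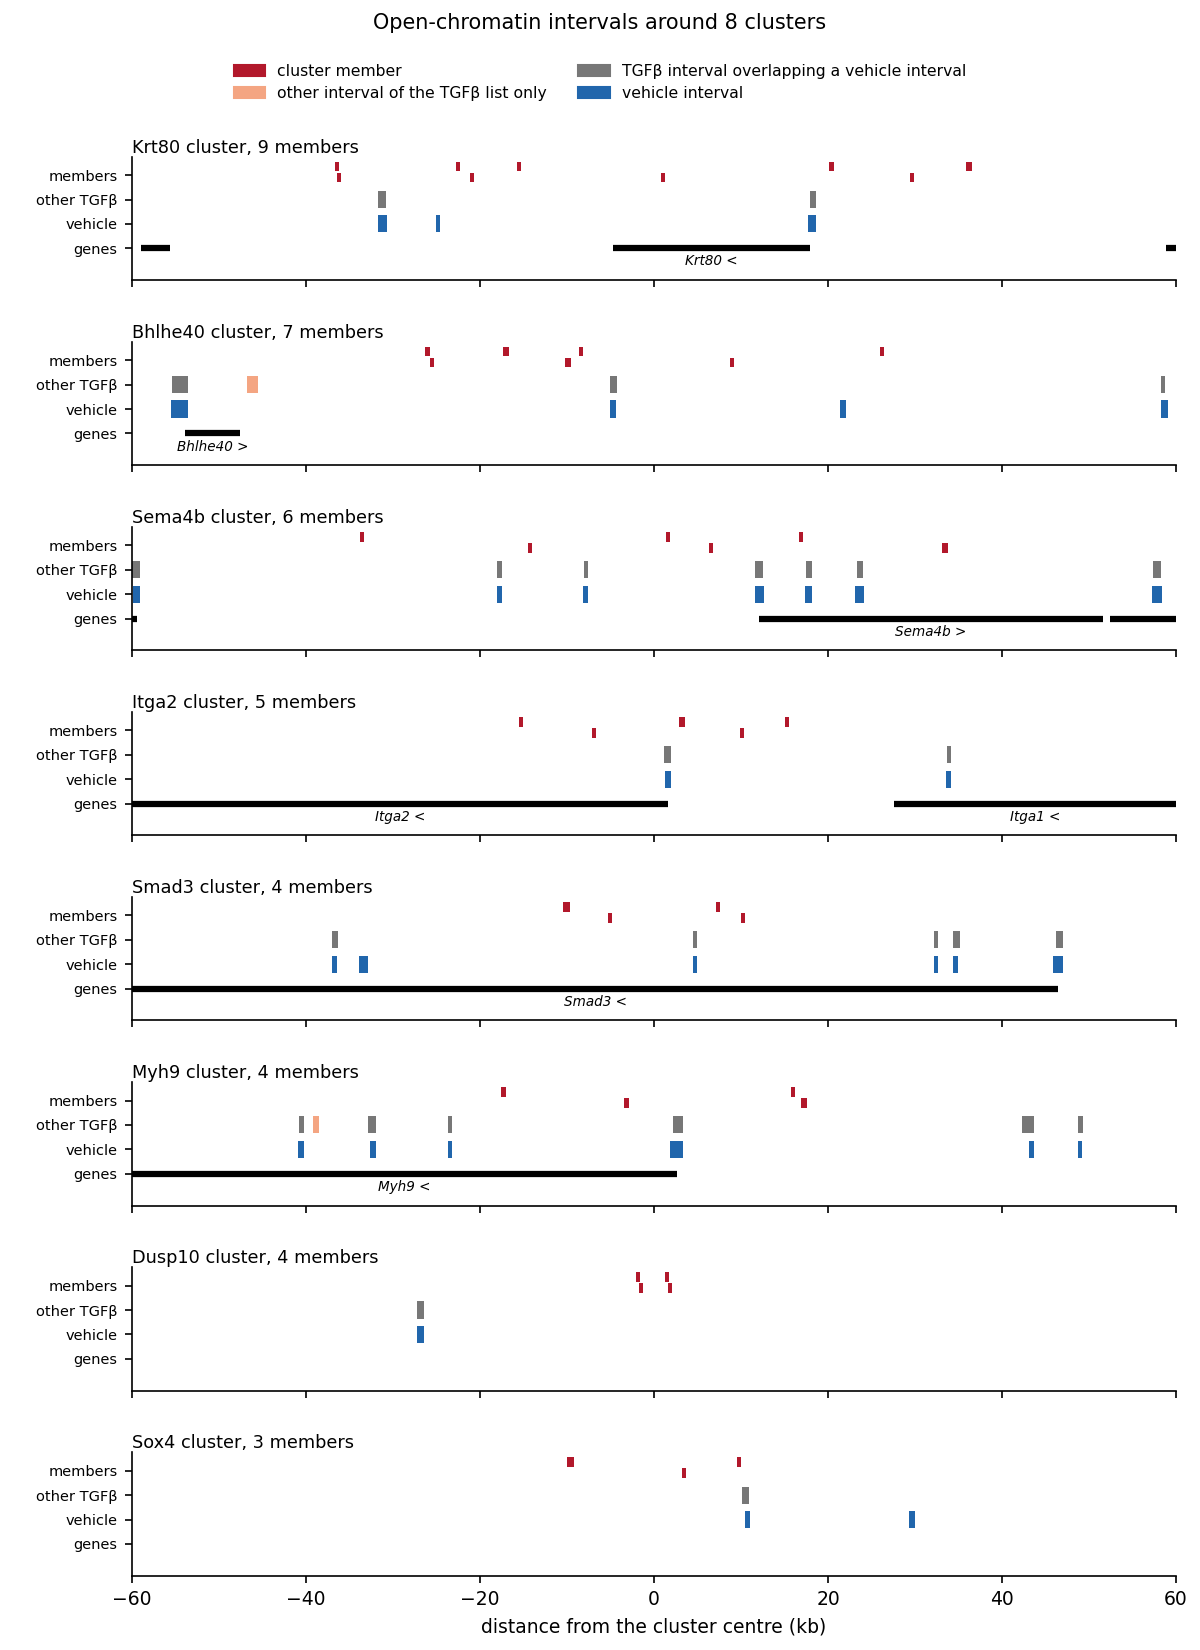
Intervals within 60 kb of the centre of 8 clusters, with cluster members in the top row (drawn alternately high and low so that close neighbours can be told apart), other TGFβ intervals, vehicle intervals, and protein-coding gene bodies (arrowheads give the strand; only bodies longer than 6 kb in view are named). Members of the Krt80 and Sema4b clusters were interspersed with vehicle intervals, whereas the Dusp10 cluster was 4 members within 4.04 kb.

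The clusters named from gene lists are given by the role of their gene, beginning with the TGFβ pathway. Smad3, the receptor-activated SMAD, had 4 intronic members within 20.9 kb of each other (chr9:63548886-63569803), on both sides of an internal transcript start. They scored 1000, 981, 686 and 701. AP-1 was found in the member scored 686 alone and none held the SMAD element, and 1 vehicle interval lay between them. Smurf1, a ubiquitin ligase for SMADs and receptors, had 3 intronic members at 1.85, 11.2 and 15.8 kb from a start. They scored 723, 948 and 850, and the last 2 held AP-1. Ltbp2, a member of the latent TGFβ-binding protein family, had 3 intronic members scoring 810, 809 and 607. None held AP-1, 2 of them were 0.318 kb apart, and its promoter was called in the vehicle list only. The inhibitory SMAD gene Smad7 was not assigned a cluster by overlap or as nearest gene outside gene bodies. It had, however, the nearest coding start, 71.9 kb away, to 4 members in an intron of Ctif, which scored 976, 669, 724 and 819. The first of these held 2 AP-1 matches and 1 SMAD element. This cluster was named after its values were seen.

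Junb, an AP-1 subunit and an early TGFβ target, had a compact cluster of 3 members within 4.93 kb (chr8:87505010-87509937), starting 2.39 kb from the gene start. The members scored 804, 1000 and 890, and Hook2 had the nearest coding start to the last 2, at 5.79 and 4.83 kb. AP-1 matches were present in the outer members, 1 and 2 respectively, and the central, ceiling-scored member held 2 SMAD elements. The refinement joined members here and left no cluster. Sox4, a transcription factor of EMT, was the nearest coding gene to the cluster farthest from any coding start: 3 members (chr13:28810350-28830342) scoring 955, 618 and 549, between 214.7 and 234.1 kb away and within an intron of a gene not annotated as protein-coding. At that distance the assignment rests on there being no nearer coding start. Tnnt2, a troponin gene in one of the regulatory domains in which the authors silenced an enhancer by CRISPR interference, had 3 members within 13.2 kb scoring 666, 579 and 540, with AP-1 in 2 of them.

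The actin cytoskeleton was represented by Myh9 (non-muscle myosin heavy chain), Actn1 (α-actinin) and Pxn (paxillin, an adaptor of focal adhesions). At Myh9, 2 intronic members scored 808 and 940 and 2 upstream members 780 and 1000, around a promoter called in both lists (chr15:77652388-77687474). The 3 intronic members at Actn1 scored 785, 656 and 697 and held no AP-1. The 3 at Pxn scored 682, 594 and 1000, and the ceiling member held both AP-1 and the SMAD element. In the adhesion and matrix list the second gene after Itga2 was Cd44, the hyaluronan receptor, whose 3 intronic members scored 880, 847 and 578 within 1.25 kb.

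Of the Hippo pathway, Wwtr1 (the coactivator TAZ) had 3 intronic members, all low (563, 578 and 550), and Amotl2, an angiomotin, had 3 at 32.5 to 41.0 kb from its start, which scored 566, 551 and 842. Of the MAP kinase and growth factor list, Dusp10, a phosphatase of p38 and JNK, had 4 members 79.1 to 82.8 kb from its start that scored 719, 719, 676 and 763. They formed 2 close pairs, and no cluster was left after the refinement. Ereg, an epidermal growth factor family ligand, had 3 scoring 716, 709 and 546, with 2 AP-1 matches in the first and 1 in the second. The third lay nearer to the related ligand gene Areg, at 28.2 kb. Of the 24 clusters named here by size or by list, 14 still held members after the refinement (all but those at Cmtm8, Dusp10, Sox4, Actn1, Junb, Smurf1, Amotl2, Ereg, Ltbp2 and Cd44), 11 in the cut TGFβ list and 18 at a chain limit of 10 kb. Over all 188 clusters these numbers were 113, 63 and 69, and 39 clusters passed both the refinement and the cut. Krt80, Bhlhe40, Gm355, Sh3glb1, F3, Smad3 and Myh9 were among those that passed both.

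In all, 201 protein-coding genes were assigned to a cluster, by overlap with its span or, outside gene bodies, as the nearest coding start. They were 0.904% (0.788 to 1.04) of the 22238 protein-coding genes. Of the 132 genes found in 8 lists on TGFβ signalling and its cell responses, 15 were assigned (11.4%, 7.01 to 17.9). The counts were 3 of 22 for TGFβ signalling and feedback, 1 of 15 for AP-1 and related factors, 1 of 20 for EMT transcription factors, 2 of 24 for adhesion and matrix, 3 of 20 for actin cytoskeleton, 2 of 10 for the Hippo pathway, 2 of 16 for MAP kinase and growth factor feedback, and 1 of 7 for the domains in which the study silenced an enhancer. The lists were drawn up with earlier results of these data known, and the last holds genes the authors chose on this response, so none of these counts is independent evidence. The list genes also differed from all genes in length and promoter state. Their median length was 22.4 kb against 15.5 kb. Among genes with a promoter interval in both lists, 13 of 109 list genes had a cluster (11.9%, 7.10 to 19.3), against 137 of 9757 genes overall (1.40%, 1.19 to 1.66). By length, the shares were 5 of 63 list genes (7.94%, 3.44 to 17.3) against 0.438% (0.337 to 0.57) of all genes up to 20 kb, and 7 of 26 (26.9%, 13.7 to 46.1) against 1.85% (1.39 to 2.47) from 50 to 100 kb. The intervals met for 1 of 17 (5.88%, 1.05 to 27.0) against 0.906% (0.676 to 1.21) from 20 to 50 kb, and for 2 of 26 (7.69%, 2.14 to 24.1) against 2.38% (1.84 to 3.07) above 100 kb. These shares rest on the same lists and carry the same limit. Whether length or promoter state accounts for the list counts was not tested.

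**Figure D3:**
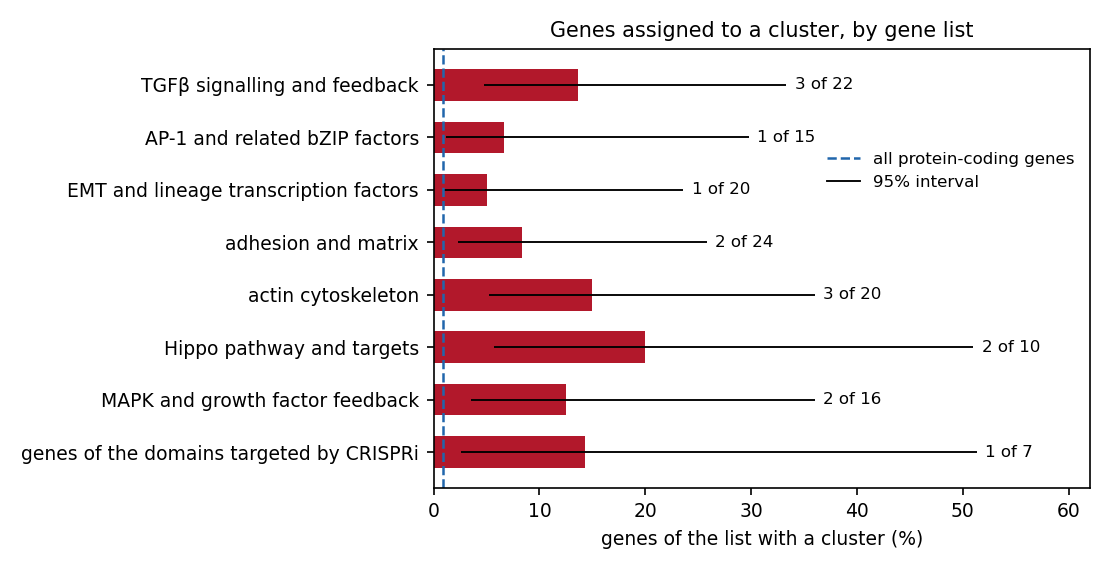
Percent of the genes of each list that were assigned to a cluster, with the 95% Wilson interval and the numbers of genes. The dashed line is the share among all protein-coding genes (0.904%), and every list lay above it, with 1 to 3 genes each. In lists this short, 1 assigned gene is enough to lie above the line. The interval of the EMT list (0.888 to 23.6) reached below it. The lists were drawn up with earlier results of these data known.

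Some further genes with a cluster are given with their known roles. They were picked from the 201 assigned genes after their values were seen and stand for no count or share. Genes of matrix and adhesion with a cluster included Wisp1 (4 members scoring 724 to 1000), Lama5, Col27a1, Fbln2, Col6a3 and Itgb3, the β3 integrin subunit, whose 4 members scored 543 to 1000 across a start of the gene. Genes linked to growth arrest and stress were represented by Gadd45a and by Gadd45g, which had 2 clusters of 3 members, 115.9 and 156.8 kb from its start, each with 2 ceiling members. Cdkn2b, a cyclin-dependent kinase inhibitor induced by TGFβ in epithelial cells, was the nearest coding start to 3 members 168.2 kb away that scored only 599 to 650. Klf11, a TGFβ-inducible repressor, had 3 members around its start that scored 738 to 798. Foxq1, a forkhead factor of EMT, had 3 at 80.5 kb and beyond, with a highest score of 1000. Ncam1, a cell adhesion molecule that rises in EMT, had 2 clusters, 75.9 and 177.2 kb from its start, with no AP-1 in either. Ece1 also had 2, with AP-1 in 2 of 3 and in 1 of 3 members. The read-through gene model Gm20388 covered 3 clusters, 2 of which also overlapped Galnt2 or Zcchc14. It stands for no separate locus.

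Most genes with a cluster had a promoter called open in both conditions. A promoter interval was present in both lists for 137 of the 201 genes (68.2%, 61.4 to 74.2) and for 43.9% of all coding genes. For the 123 genes whose bodies overlapped a cluster it was 65.9% (57.1 to 73.6), an interval that met that of the 60.7% (58.6 to 62.8) of 1998 genes whose bodies held other TGFβ-only distal intervals. Only 7 genes had a promoter interval with TGFβ only (Cmtm8, Nckap5, Gng7, Coro2b, Me3, Maml3 and Cxxc5), 3.48% against 2.46% of all coding genes. Another 6 had one with vehicle only, Ltbp2 among them (2.99% against 1.85% of all coding genes), and 51 had none (25.4% against 51.8%). Genes whose bodies overlapped a cluster had a median length of 58.8 kb, against 80.5 kb for genes holding the other TGFβ-only intervals and 15.5 kb for all coding genes. Of the 188 clusters, 65 lay inside a gene body, 42 partly overlapped one and 81 touched none. A coding start lay within 50 kb of 147 clusters (78.2%) and more than 100 kb from 18. Besides the one assigned to Sox4, the most remote were in Eif4e3 (180.3 kb from the start of Foxp1), near Ncam1, in Samd12 and near Cdkn2b.

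Some clusters were interspersed with sites called open in vehicle. A vehicle interval lay inside the span of 64 clusters (34.0%, 27.6 to 41.1), and the others had none. A TGFβ interval shared with vehicle lay within 20 kb of 311 members (49.5%, 45.6 to 53.4), against 38.0% (36.8 to 39.2) of the other TGFβ-only distal intervals. A vehicle interval came within 1000 bp of 36 members (5.73%). Counting such near neighbours as shared left 162 clusters. A promoter interval called with TGFβ only lay inside the span of 2 clusters, at Vmp1 and Cmbl.

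As single sites the members were close to the rest of the TGFβ-only distal intervals in width, GC content and distance to genes, and no test was made of the score, which belongs to the peak calls from which they were chosen. The median score was 701.5 for members and 667 for the others, and 72 members (11.5%, 9.20 to 14.2) sat at the ceiling against 7.52% of the others. Both were below the shared distal intervals, with a median of 919 and 40.4% at the ceiling. The 72 ceiling members were spread over 62 clusters, and chaining ceiling intervals alone gave no cluster. Median widths were 445 bp for members, 435 bp for the others and 597 bp for shared intervals. GC content of the window had a median of 52% for members and 51% for the others. The nearest coding start was a median of 24.4 kb away for members and 23.8 kb for the others. Intergenic positions held 339 members (54.0%, 50.1 to 57.8; others 49.3%, 48.0 to 50.6) and introns of coding genes 258 (41.1%, others 43.4%). Coding exons held 5 members (0.796%, 0.341 to 1.85), fewer than the 2.80% (2.41 to 3.25) of other TGFβ-only and 4.54% (3.77 to 5.45) of vehicle-only distal intervals. Across chromosomes the share of TGFβ-only distal intervals in clusters ranged from 4.19% (2.22 to 7.76) on chromosome 16 to 16.8% (13.4 to 20.9) on chromosome 3, which had 19 clusters.

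DNA sequence was not used to choose the members. AP-1 was present within 100 bp of the midpoint in 200 of the 628 members (31.8%, 28.3 to 35.6). The share was lower in chains of 2 (27.6%) and in single TGFβ-only intervals (26.3%), and lower again in shared distal intervals (23.5%, 22.3 to 24.6) and vehicle-only distal intervals (7.64%, 6.64 to 8.78). Windows 2000 bp upstream of the members on the chromosome held it in 3.66%. Members exceeded the other TGFβ-only distal intervals by 5.18 percentage points (1.47 to 9.09), the shared by 8.39 (4.67 to 12.3) and the vehicle-only by 24.2 (20.5 to 28.1). The first of these differences depended on the setting. Its interval reached below 0 with windows of 50 or 200 bp on either side or over the whole interval (1.75 to 2.82 points), after the refinement (3.62 points) and in the cut list (3.30 points). The same held at a chain distance of 50 kb (2.23 points) and with chains of 4 or more (4.71 points). At 10 kb the difference was larger, at 9.44 points (3.35 to 16.0).

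The SMAD-binding element CAGACA was found in 206 members (32.8%, 29.2 to 36.6) and 29.5% (28.4 to 30.7) of the other TGFβ-only distal intervals, a difference of 3.28 points (-0.465 to 7.22). Both shares were above those of shared (20.5%, 19.4 to 21.6) and vehicle-only intervals (20.1%, 18.5 to 21.7), which were near the 19.9% of the windows upstream of members. Members thus exceeded shared intervals by 12.3 points (8.62 to 16.3) and vehicle-only intervals by 12.7 (8.80 to 16.8). AP-1 and the SMAD element occurred together in 70 members (11.1%, 8.92 to 13.8), against 8.25% (7.57 to 8.98) of the other TGFβ-only, 5.66% of shared and 1.39% of vehicle-only intervals. The longer SMAD palindrome GTCTAGAC was in 5 members (0.796%), in 0.662% of the other TGFβ-only intervals and in 0.478% of the windows upstream of members. In this window, AP-1 alone of the 12 motifs searched had a difference between members and the other TGFβ-only intervals whose interval excluded 0, with the dependence on the setting given for it. No allowance was made for searching 12 motifs or for members that share a locus, so this does not set AP-1 apart from the other motifs. The other motifs were searched in this window only. The TEAD element ACATTCC was in 5.73% of members and 5.01% of the others, the RUNX element TGTGGTT in 8.28% and 8.06%, the FOX element TGTTTAC in 5.25% and 3.92%, the KLF element CCNCACCC in 10.5% and 10.3%, the cyclic AMP response element TGACGTCA in 0.318% and 0.306%, the ETS element CCGGAAG in 1.27% and 1.32%, and the Grainyhead element AACCNGTT in 1.27% and 1.15%. Exact matches to the CTCF motif were in 0.796% of members, 0.849% of the others and 2.14% of vehicle-only intervals. Those to the NFI motif were in 0.159% of members and 0.119% of the others. Such matches describe sequence and do not show binding.

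**Figure D4:**
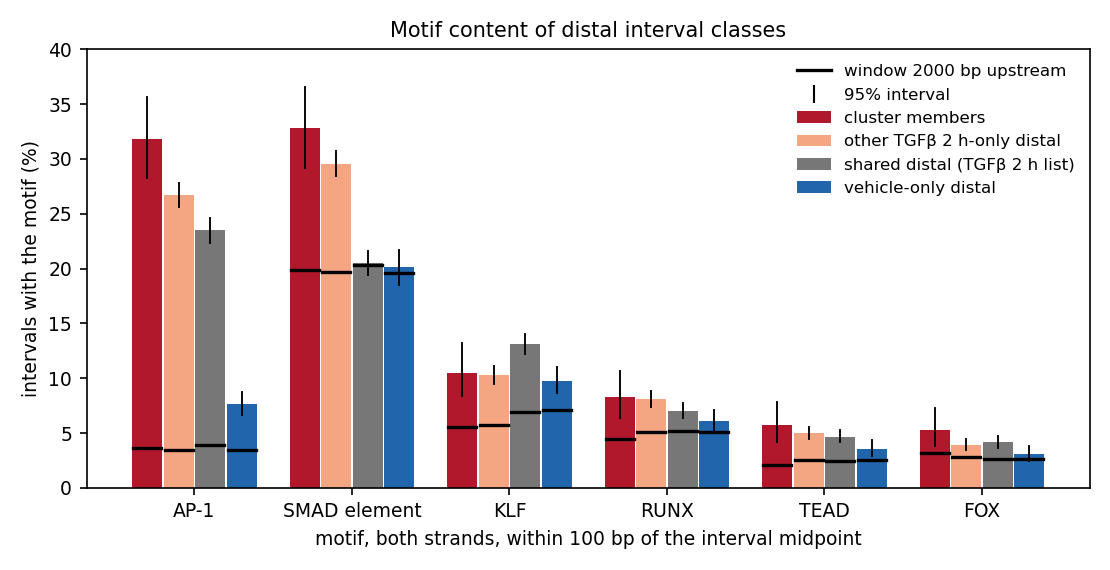
Percent of distal intervals with a motif within 100 bp of the midpoint (bars, with 95% Wilson intervals as thin lines) in 4 classes of interval, and in windows 2000 bp upstream (thick black ticks). AP-1 and the SMAD element were both most frequent in cluster members (31.8% and 32.8%), and vehicle-only intervals were close to the upstream windows for the SMAD element but not for AP-1 (7.64% against 3.44%). Against the other TGFβ-only intervals, the SMAD element difference was 3.28 points (-0.465 to 7.22), and the AP-1 difference depended on the setting.

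AP-1 content was higher at higher scores in both classes, and members had the higher median score. The score belongs to the peak calls from which the members were chosen. In members, AP-1 was in 21.6% (16.0 to 28.4) of the lowest tertile of scores below the ceiling, 32.0% of the middle tertile, 35.0% of the highest and 45.8% (34.8 to 57.3) of ceiling intervals. The other TGFβ-only distal intervals gave 21.1%, 23.9%, 32.4% and 38.8%. The member share was higher in each bin, and the intervals of the 2 classes met in every one. In the middle tertile they barely met (25.5 to 39.2 against 22.0 to 25.9). Intervals that meet do not show that the shares are equal. Whether score accounts for the difference in AP-1 share was not tested. Within 188 clusters, 134 (71.3%, 64.4 to 77.3) held AP-1 in at least 1 member, 50 in at least 2 and 7 in every member. Those with AP-1 in every member included the 4-member cluster near Tbl1xr1 and the 3-member clusters at Slc37a1, Me3, Slc25a25 and Fndc7. Of the 214 matches in members, 111 were within 50 bp of a midpoint. The SMAD element was in at least 1 member of 142 clusters (75.5%), both elements were somewhere in 104 (55.3%), and 16 clusters held neither. A cluster pools 3 or more windows, so shares per cluster lie above those of single members. No matched value for other chains is given here.

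**Figure D5:**
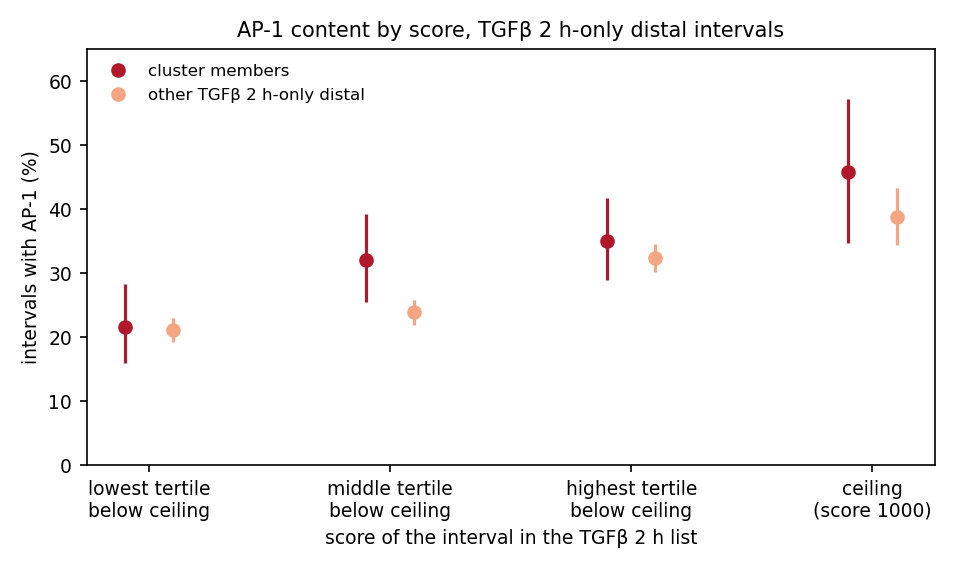
Percent of TGFβ-only distal intervals with AP-1 within 100 bp of the midpoint, by score, for cluster members and the others (points, with 95% Wilson intervals). Both shares were higher at higher scores, from 21.6% to 45.8% in members and from 21.1% to 38.8% in the others.

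The 10 vehicle-only clusters lay at Pola2, Prkrip1, Uvrag and 10 other assigned genes. AP-1 was in 2 of their 30 members (6.67%, 1.85 to 21.3), both at Uvrag, an autophagy gene. The share was near the 7.64% of all vehicle-only distal intervals.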

How the data were processed

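DNaseI-seq of NMuMG cells was analysed from 1 peak list per condition, grouped by sample title. Per the methods and the submitters' processing notes, the authors aligned reads to mm9 and called peaks with MACS2 2.1.2 in their ATAC-seq pipeline with DNaseI-seq options that are not given in the sources used here. For ATAC-seq that pipeline kept peaks reproducible between replicates by an irreproducible discovery rate. The data listing names DNaseI-seq read files merged by condition, and whether the step was applied to them in the same way is not stated. The deposited score is the authors' whole-number value from 540 to 1000, and serves only to rank intervals within a list. The lists give no read counts per interval. According to the study's reporting summary the vehicle library had the larger number of mapped reads. No value was scaled by depth. Each list repeats intervals over several rows (68542 rows for TGFβ, 70449 for vehicle), and rows with the same interval were counted once.

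Overlap meant 1 shared base or more. Gene models and sequence were GENCODE M1 and NCBIM37. For gene assignment, 142 coding records sharing symbol and chromosome with a longer record were left out. Ajuba was not found under that symbol. Motifs were exact matches on both strands in 200 bp around the midpoint. Palindromic motifs count once, and motifs may overlap. Clusters named were the 10 with most members (ties by summed width) and those with an assigned gene in 8 lists. The members and lists were chosen with earlier results of these data known. Intervals are 95% Wilson or Newcombe intervals. Alternatives changed the chain distance, chain length, overlap, promoter definition, refinement, list length, score threshold, chromosomes and motif window. Chaining and motif search were tested on simulated data. Python 3.11.15, numpy 2.4.6, pandas 2.3.3, scipy 1.17.1 and matplotlib 3.10.9 were used.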

Additional observations from a re-analysis of the deposited data

How the results depend on the processing

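The main values were 188 clusters with 628 members (9.63% of the pool), AP-1 in 31.8% of members, 5.18 points above the other TGFβ-only distal intervals, and 10 vehicle-only clusters. A chain distance of 10 kb gave 70 clusters, 226 members (3.47%), AP-1 in 36.3%, a difference of 9.44 points and 3 vehicle-only clusters. A distance of 50 kb gave 452 clusters, 1665 members (25.5%) and 48 vehicle-only clusters. Chains of 4 or more gave 48, 208 members (3.19%) and 0 vehicle-only clusters. Refined intervals gave 113, 374 (6.28%) and 3, and the TGFβ list cut to the vehicle length 64, 207 (5.90%) and 30. Ceiling intervals alone gave 0 clusters, 0 members (0%) and 0 vehicle-only clusters, hence no AP-1 value. A reciprocal overlap of 50% moved the member share to 10.8% and the vehicle-only clusters to 24, and counting vehicle intervals within 1000 bp as shared moved the share to 8.63%. AP-1 within 50 bp, within 200 bp or anywhere in the interval was in 16.1%, 43.9% and 47.8% of members. The AP-1 difference had an interval reaching below 0 under the settings named in the report, among them 50 kb (2.23 points) and chains of 4 or more (4.71 points). It was above 0 under every alternative that gave a value. TGFβ-only clusters outnumbered vehicle-only clusters under every alternative that gave clusters. The causes of these shifts were not tested. No paired analysis was possible because there was only 1 list for either condition. The lists hold no reads per site, so a weak site missed in vehicle cannot be told from a closed one. The vehicle library was the more deeply sequenced of the pair, and the part of depth in the counts was not tested.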
